A study of Rattus norvegicus with 67 samples.

Results

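The 1000 bp windows of rat chromosome 17 were examined in the ChIP-Seq of sperm with a histone H3 antibody. All windows that the count table places on chromosome 17 were taken, which gave 90844 of 2782040 windows, or 3.27%. These were divided into 91 bins of 1 Mb, numbered by the Mb at which they begin in the Rnor_6.0 build. The chromosome was selected on the number of windows in which lean animals differed from the reference, which was lower there than elsewhere, so the lean comparison is a description here, with no test.

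The animals were F3 generation males, the great-grand-offspring of outbred Sprague Dawley females given atrazine or the vehicle DMSO during gestation, and no F3 male was itself exposed. Sperm was collected at 1 year of age. The table holds 16 animals of the control lineage, of which 9 are tagged as free of disease and 7 with a disease, and 50 of the atrazine lineage. The atrazine lineage animals had the lean phenotype alone (5), kidney disease alone (3), testis disease alone (4), late puberty alone (5), multiple disease (14) or no disease (19). Of the last group, 17 served as the reference of the disease comparisons, and M59 and M68 did not. A treatment tag in the sample list goes against the lineage in the title for all 16 control animals, tagged atrazine, and for 13 atrazine lineage animals, M57 to M69, tagged DMSO. The lineage in the title was followed. Total counts were between 19909382 and 239635003 per animal, with a median of 57082912. The study's methods name a pan antibody for H3 or one for a trimethylated form and describe sperm pools, while the counts are given for single animals. Libraries were sequenced in shared lanes that the sources do not assign, so lane and group cannot be told apart.

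During spermatid maturation most histones are replaced by protamines, which pack the sperm DNA more tightly. A small part of the histones stays behind, and the DNA bound to it is what an H3 antibody recovers from sperm. A level below is the number of reads in a window divided by the animal's total and scaled to reads per 1000000 (RPM), averaged over the windows of a bin where a bin is given. A high level shows more recovered reads at a place and does not by itself separate retained histones from repeated sequence or ease of mapping.

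By 1 Mb bins, histone H3 reads were spread almost evenly along most of chromosome 17, with many short stretches of high level at the scale of windows. The chromosome took 3.33% ± 0.052 (SD, n = 66) of the reads. The mean level was 0.367 RPM per window, against 0.370 RPM over chromosomes 1 to 20, and 8th from the lowest of these 20. Of the 91 bins, 79 had a level between 0.33 and 0.40 RPM. No animal had a read in 3522 windows (3.88%, against 4.00% over chromosomes 1 to 20). The longest run of such windows had 149 windows, at chr17:2458001-2607000. A level above 2 times the median window of chromosomes 1 to 20 was found in 1912 windows (2.10%, against 2.38%), and these windows held 8.11% of the reads of the chromosome. They formed 541 stretches, of which 192 were single windows, and 452 of the 1912 windows lay in the 4 bins at 44, 47, 48 and 89 Mb.

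**Figure D1:**
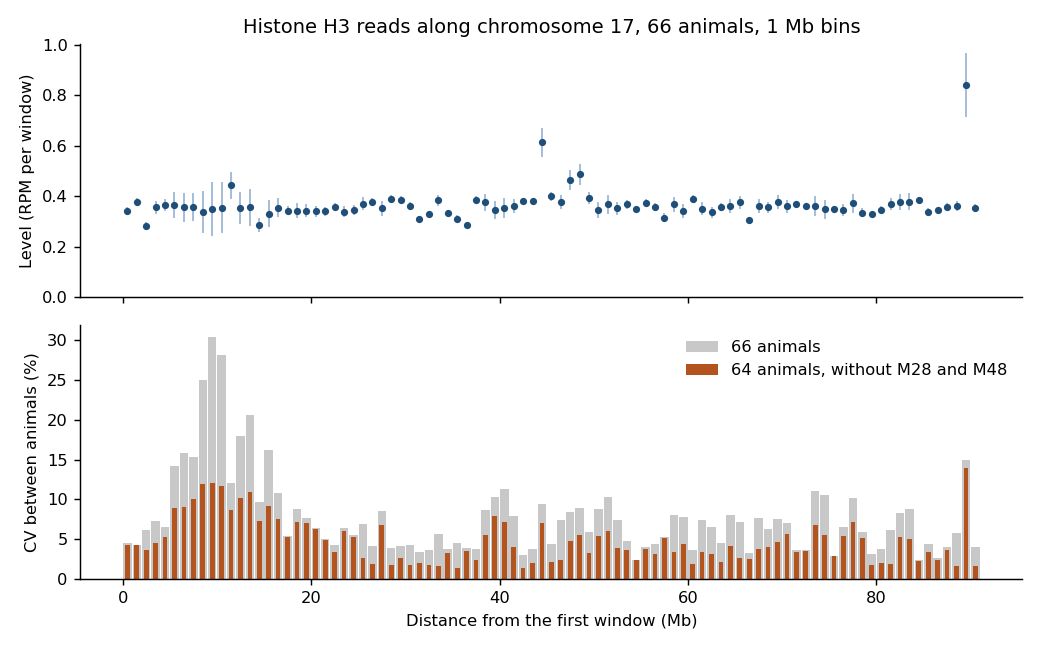
The upper panel plots the level of each 1 Mb bin (RPM per window, mean and SD of 66 animals) and the lower panel its coefficient of variation between animals (CV, %), both against the distance from the first window in Mb. The level lies between 0.33 and 0.40 RPM in 79 of 91 bins, is highest at 89 Mb and lowest at 2 Mb, and the CV is highest at 9 Mb (30.4%); without animals M28 and M48 it is highest at 89 Mb (14.0%).

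The 5 bins with the highest level lay in 3 places. The bin at 89 Mb had 0.841 ± 0.126 RPM (SD, n = 66), with 0.490 RPM in M48, the lowest animal, and 1.05 RPM in the highest. This bin lies between Etl4 and Gng4, which encodes a gamma subunit of G proteins. The bins at 44 Mb (0.614 ± 0.058 RPM), 48 Mb (0.486 ± 0.043 RPM) and 47 Mb (0.464 ± 0.039 RPM) lie between Cmahp and Amph, or at Amph, which encodes amphiphysin, a protein of membrane curvature and endocytosis. The bin at 11 Mb followed with 0.443 ± 0.054 RPM. The gene names come from the study's region lists and mark positions only. In the later GRCr8 build, whose annotation was used for gene order and for no coordinate, 39 of the annotated genes between Cmahp and Amph are histone genes and 84 are tRNA genes. Histone genes are multicopy genes that encode the core and linker histones themselves, and near-identical copies share reads. A histone or tRNA gene cannot be assigned to a window here, since no annotation of the Rnor_6.0 build was used.

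The windows with the highest levels were at the same places. The highest was chr17:44397001-44398000 with 16.99 ± 4.19 RPM, or 44.4 times the median window, and it reached from 5.56 RPM in M48 to 28.98 RPM in M3. The next 4 were within the bin at 89 Mb, with 15.1 ± 3.47 RPM at chr17:89455001-89456000, 14.6 ± 3.43 RPM at chr17:89436001-89437000, 14.1 ± 3.38 RPM at chr17:89390001-89391000 and 13.7 ± 3.54 RPM at chr17:89391001-89392000. M2 was the lowest animal in 3 of these 4 and M48 in the last. The longest high stretch was chr17:47816001-47894000, with 78 windows and a mean of 1.301 ± 0.176 RPM. The stretch chr17:89423001-89464000 was shorter, with 41 windows, and higher, with 7.72 ± 1.73 RPM. Control animal M2 had 2.95 RPM there, where the median animal had 7.62 RPM.

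The 5 bins with the lowest level were less far from the rest. They were the bins at 2 Mb (0.282 ± 0.017 RPM), 14 Mb (0.287 ± 0.028 RPM), 36 Mb (0.287 ± 0.011 RPM), 66 Mb (0.308 ± 0.010 RPM) and 31 Mb (0.310 ± 0.011 RPM). In the bin at 2 Mb 231 of 1000 windows had no read in any animal, while the bins at 14, 36, 66 and 31 Mb had between 29 and 57 such windows.

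Animals differed less on chromosome 17 than on any other of chromosomes 1 to 20 by the median CV of the 1 Mb bins. This was 6.41% on chromosome 17, 7.15% on chromosome 18, which was next, 19.6% on chromosome 12, the highest, and 8.60% over the bins of all 20. Without M28 and M48, the chromosome 17 value was 4.03% and was again the lowest of the 20. By the SD over animals of the log2 share of reads, chromosome 17 was not the lowest. It had 0.0228, against 0.0179 on chromosome 6. The CV that counting alone would give had a median of 0.700% per bin. The CV of single bins reached from 2.35% at 84 Mb to 30.4% at 9 Mb. The bins at 9, 10 and 8 Mb had the largest CVs, of 30.4%, 28.1% and 25.0%. Without M28 and M48 these 3 bins had 12.1%, 11.7% and 11.98%. The bin at 8 Mb is where the study's lists place Catsper3, which encodes a subunit of the sperm calcium channel.

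Part of the spread followed a profile along the chromosome, which some animals had strongly. Others lay on the other side of the median over part of it. How much of the spread it makes up was not measured. M48 was the lowest or the highest of 66 animals in 76 of the 91 bins. Over the 21 bins from 4 to 25 Mb, lean animal M42 was above the median animal in 21 bins, lean animal M28 in 20 and multiple disease animal M48 in 19. Over the 16 bins from 38 to 54 Mb, M42 was below it in 14 and M28 and M48 in 16. Median log2 deviations were 0.39 in M42, 0.38 in M28 and 0.68 in M48 over the first stretch, and -0.23, -0.41 and -0.88 over the second. Control lineage animal M17, whose disease tag names both kidney disease and the lean phenotype, had 0.27 and -0.15. Control animal M2 and no disease animal M62 lay on the other side over the first stretch, with -0.17 and -0.20, and near 0 over the second, with 0.03 and 0.01.

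**Figure D2:**
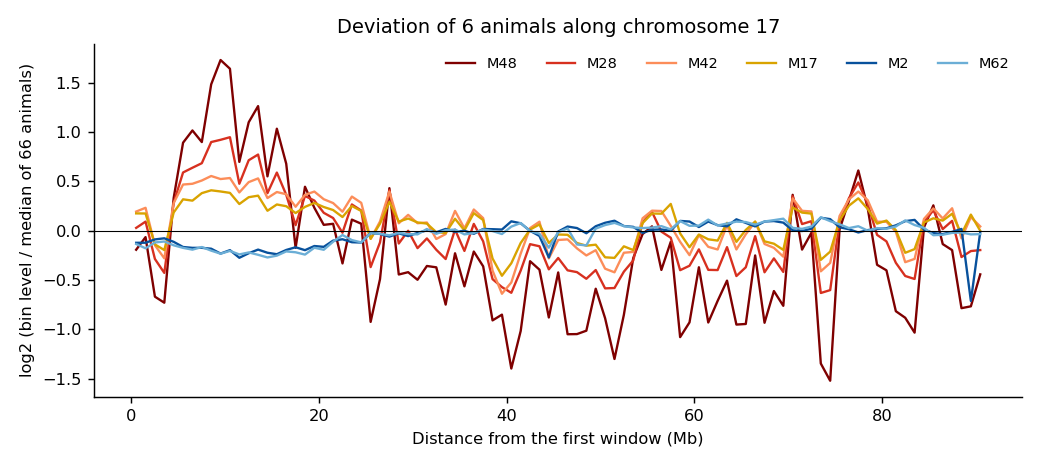
Lines show, for 6 animals, the log2 ratio of each 1 Mb bin's level to the median of 66 animals, against the distance from the first window in Mb. M48, M28, M42 and M17 rise over 4 to 25 Mb, with median deviations of 0.68, 0.38, 0.39 and 0.27, and M2 and M62 lie below 0 there.

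The bin profile of M42 had a correlation of 0.99 with that of M17, 0.95 with M28 and 0.89 with M48, and of -0.60 with M2 and -0.62 with M62. These are correlations over 91 neighbouring bins of single libraries and describe the profiles only. Of the 65 other animals, 24 had a correlation above 0.5 with M42 and 25 below -0.5. The ratio of the level over 4 to 25 Mb to that over 38 to 54 Mb, stretches chosen after the values were seen, gives another measure of the profile, whose order of animals differs from that of the correlations. It was between 0.743 in M2 and 2.48 in M48, with a median of 0.836. It was below 1 in 61 animals, and above 1 in M17 (1.14), no disease animal M22 (1.25), M42 (1.31), M28 (1.56) and M48. The 4 animals with the highest ratio were also the 4 with the largest share of reads on chromosome 12. The ratio was 0.961 ± 0.298 (n = 37) in atrazine lineage animals tagged atrazine and 0.812 ± 0.039 (n = 13) in those tagged DMSO. It was 0.824 ± 0.104 in the 16 control animals.

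Whether an ancestral exposure or a disease moved reads to or from the whole chromosome was asked with the share of reads on chromosome 17. The share was 3.319 ± 0.056% in control animals (n = 16) and 3.334 ± 0.051% in atrazine lineage animals (n = 50). The difference of 0.015 percentage points was smaller than either SD and had a p of 0.320 in a two-sided permutation test, 0.630 after Benjamini-Hochberg adjustment over the 5 comparisons tested. The share was 3.327 ± 0.0034% with kidney disease (n = 3), 3.340 ± 0.0096% with testis disease (n = 4), 3.329 ± 0.017% with late puberty (n = 5), 3.317 ± 0.073% with multiple disease (n = 14) and 3.339 ± 0.033% in the 17 reference animals. The two-sided exact permutation tests had p of 0.500, 0.966 and 0.504 for the first 3, and the permutation test for multiple disease had 0.319. After adjustment these were 0.630, 0.966, 0.630 and 0.630. The tests set no difference apart from a random assignment of animals, and groups of 3 to 5 animals leave them little power. In the lean animals the shares were 3.31% in M28, 3.35% in M66, 3.35% in M56, 3.36% in M54 and 3.52% in M42. The reference animals lay between 3.25% and 3.41%, and M42 alone of the lean animals was outside that range. M42 had the highest and M48, with 3.10%, the lowest share of all 66 animals.

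**Figure D3:**
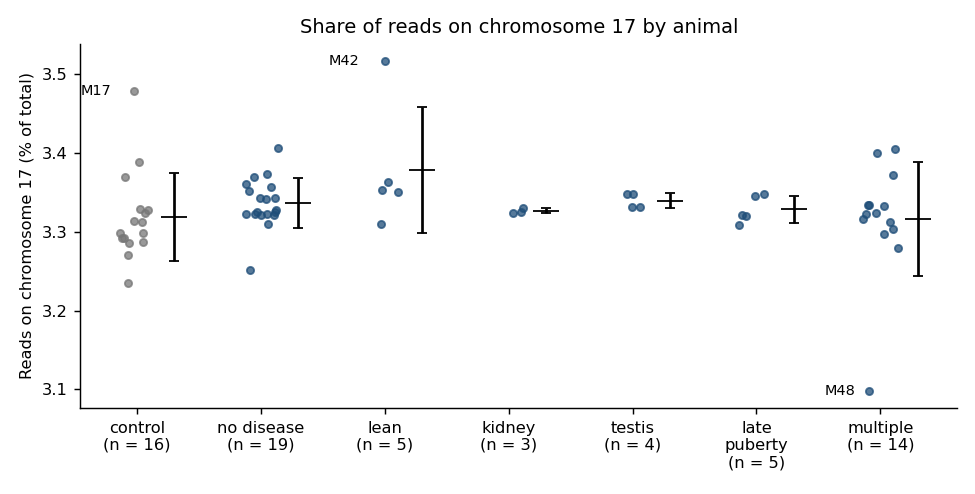
Points are the percent of an animal's reads on chromosome 17, by group, with the group mean and SD beside them; the axis does not start at 0. Group means lie between 3.317% and 3.379%, and M42, M17 and M48 lie apart from their groups.

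Windows of differential histone retention were few in every comparison, on chromosome 17 and over all chromosomes. They are counted below at p below 0.0001 in edgeR's quasi-likelihood test. The study used the same level for its regions, but with edgeR p-values obtained through MEDIPS, so its counts are not comparable with these. No chromosome 17 window passed Benjamini-Hochberg adjustment at 0.05 over all windows tested in any of the 6 comparisons. Across all chromosomes 1 window passed it in testis disease (4.07e-05% of those tested), 3 between the lineages (0.000121%) and 0 in the rest. At an unadjusted p below 0.05, the lean comparison had 7884 chromosome 17 windows (9.69%, against 11.4% of all windows tested). Kidney disease had 2247 (2.72%, against 2.77% of all windows tested), testis disease 2994 (3.63% against 3.65%) and late puberty 2879 (3.50% against 3.49%). Multiple disease had 2611 (3.20% against 3.3%) and the lineages 4183 (5.04% against 6.24%).

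In the lean comparison 15 of 81389 chromosome 17 windows tested had p below 0.0001, 7 higher and 8 lower in lean animals. This was 0.0184% of the windows, and 0.0402% of all windows tested were called in the lean comparison. In proportion to the windows tested, 32.7 would lie on chromosome 17, and 8.14 would if p-values were spread evenly. The share was the lowest of the 20 chromosomes, followed by 0.0265% on chromosome 18 and 0.0290% on chromosome 9, and the highest was 0.0595% on chromosome 20. At p below 0.05, 9.69% of the chromosome 17 windows were called, against 11.4% of all windows tested, with 5.67% higher and 4.01% lower in lean animals. This too was the lowest of the 20, and chromosome 12 had the highest, with 15.96%. Since the chromosome was chosen for these counts, they are given as its description.

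The lean differences were also smaller in size here. The SD of the window log2 differences was 0.312 on chromosome 17 and 0.334 over chromosomes 1 to 20, and it was the 2nd lowest after chromosome 12. Over 1 Mb bins it was 0.125 against 0.160. On chromosome 17, 37 bins (40.7%) differed by more than 0.1 on the log2 scale, the lowest share of the 20 chromosomes, whose median was 62.5%. Bin differences reached from -0.18 to 0.34. The median difference was 0.17 over 4 to 25 Mb and -0.09 over 38 to 54 Mb, the direction in which M28 and M42 deviate.

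Several measures moved with the lean counts across chromosomes, and their part in the result was not tested. Chromosome 17 had the lowest median CV of bins, as given above. It also had the lowest median quasi-likelihood variance, which is the spread of a window's counts within groups relative to that of windows of like level, with 0.952 in the lean comparison. It was the lowest of the 20 in 5 of the 6 comparisons, and the 3rd lowest in multiple disease. Its median level in the lean comparison was 6th from the lowest. Over the 20 chromosomes, the percent of lean windows with p below 0.05 had a Pearson correlation of 0.91 and a Spearman correlation of 0.86 with the median CV of bins, and 0.83 and 0.84 over the 19 without chromosome 12. With the quasi-likelihood variance they were 0.98 and 0.91, and with the median level -0.45 and -0.32. In the other comparisons the correlations with the CV were 0.89 and 0.64 between the lineages, 0.68 and 0.55 in multiple disease, 0.37 and 0.47 in testis disease, 0.23 and 0.07 in late puberty, and -0.30 and -0.14 in kidney disease. The CV is taken over all animals, lean animals M28 and M42 included. The quasi-likelihood variance comes from the same fit as the p-values, with M28 and M42 in it, so it is not independent of the counts. The chromosomes share the same 66 libraries, so these values are a description. The deviations of M28 and M42 along the chromosome had SDs of 0.388 and 0.274 on the log2 scale on chromosome 17, each the 3rd lowest of the 20.

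**Figure D4:**
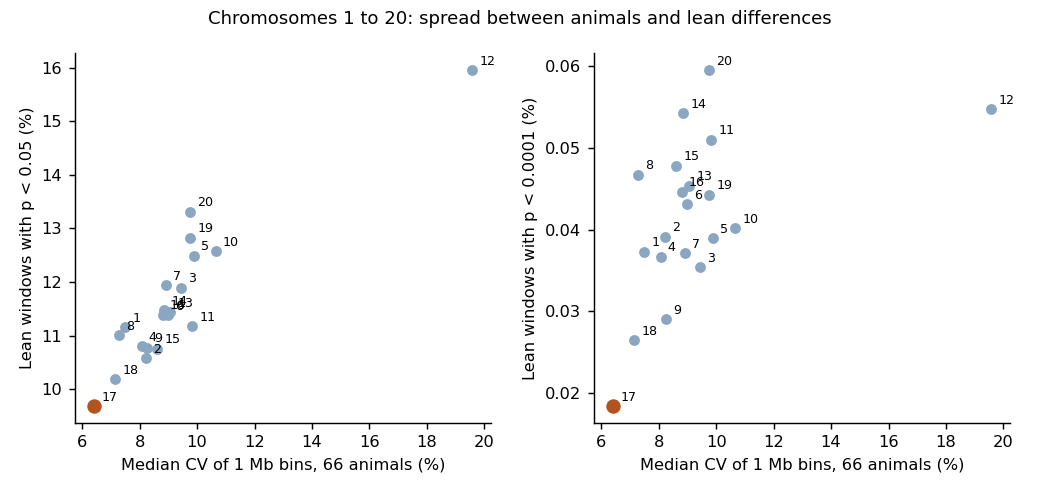
Each point is one of chromosomes 1 to 20, with the median CV of its 1 Mb bins over 66 animals (%) on the x axis and the percent of lean windows with p below 0.05 (left) or below 0.0001 (right) on the y axis; neither axis starts at 0. Chromosome 17 has the lowest value on all of them, with 6.41%, 9.69% and 0.0184%.

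The number of lean windows changed when single animals were left out, on chromosome 17 and in the other windows alike. In a fit on chromosome 17 and a sample of 200000 other windows, 17 chromosome 17 windows had p below 0.0001 (0.0209%, against 0.0494% of the other windows). Without M42 there were 5 (0.0061% against 0.0145%), without M28 there were 8 (0.0098% against 0.0150%), and without both 3 (0.0037% against 0.0063%). Without M66 there were 65 (0.0796% against 0.183%), without M54 52 (0.0641% against 0.107%) and without M56 24 (0.0294% against 0.0652%), so that the share rose in the other windows too. Without reference animal M22, whose profile had a correlation of 0.96 with that of M42, there were 70 (0.0863% against 0.175%). The SD of the bin differences fell to 0.018 without M28 and M42, against 0.025 over chromosomes 1 to 20.

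The 15 lean windows lay in 13 bins, with absolute log2 differences between 0.86 and 1.43. In 6 of the 7 higher windows M28 had the highest level of the lean animals, and in 6 of the 8 lower windows M42 had the lowest. All 5 lean animals lay outside the range of the 17 reference animals in 2 windows, 4 animals in 8 windows and 3 animals in 5. The windows were picked by their p in these same animals, so such separation is built in. It was not counted over all windows tested. The window with the smallest p among those higher in lean animals, chr17:71730001-71731000, is where the study places Sfmbt2, which encodes a Polycomb group protein. On library sizes scaled by TMM it had 1.75 RPM in M28, 0.838 in M56, 0.725 in M42, 0.502 in M66 and 0.420 in M54. The reference animals had between 0.242 and 0.603 RPM with a median of 0.382, so M66 and M54 lay within their range. The log2 difference was 1.08 (SE 0.23). The window with the smallest p among those lower in lean animals, chr17:64730001-64731000, had 0.219 RPM in M56, 0.182 in M54, 0.122 in M28, 0.118 in M66 and 0.101 in M42. The reference animals had between 0.183 and 0.655 RPM with a median of 0.397. The log2 difference was -1.43 (SE 0.31), from 3 to 13 reads per lean animal. Other lean windows were at Fars2 (mitochondrial phenylalanyl-tRNA synthetase, log2 difference -1.17), Vps41 (endosomal and lysosomal trafficking, -1.31), Akr1c19 (an aldo-keto reductase, -1.34) and Fbh1 (a DNA helicase, 0.99).

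Between animals with other single diseases and the reference, chromosome 17 had 0 windows with p below 0.0001 in kidney disease (background 0.00239% of all windows, also 0 by DESeq2's Wald test), 2 in testis disease (0.00243% against 0.00533%) and 1 in late puberty (0.00121% against 0.00359%). Multiple disease had 1 (0.00123% against 0.00137%). These counts are too small to be set apart from the background, and their side of it changed with the processing in testis disease, late puberty and multiple disease. The windows named next have the smallest p in each direction, and all had an adjusted p of 1.00 after rounding in edgeR's quasi-likelihood test. Both kidney disease windows, the lower window of late puberty and that of multiple disease did not reach p below 0.0001. Since the windows were picked by p, a separation from the reference range is built in. Animals outside that range were not counted over all windows.

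In kidney disease the smallest p among higher windows was at chr17:57252001-57253000, with 0.680 ± 0.216 RPM (n = 3) against 0.340 ± 0.128 (n = 17), and 2 of 3 animals lay above the reference range. Among lower windows it was at chr17:37576001-37577000, with 0.2004 ± 0.049 RPM against 0.435 ± 0.103, and 1 of 3 animals lay below the range.

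In testis disease chr17:57903001-57904000 had 0.410 ± 0.231 RPM (n = 4) against 0.170 ± 0.065 (n = 17), with M29 at 0.719 RPM and 2 of 4 animals above the reference range. The lower window, chr17:48406001-48407000 at Amph, had 0.420 ± 0.078 RPM against 0.769 ± 0.178, with 3 of 4 animals below the range. The second longest high stretch, chr17:48413001-48464000, begins near it.

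In late puberty chr17:85090001-85091000 at Dnajc1, a chaperone gene of the endoplasmic reticulum, had 0.558 ± 0.136 RPM (n = 5) against 0.297 ± 0.116 (n = 17), and 1 of 5 animals lay above the range. At chr17:70987001-70988000, where the study names Prkcq, a protein kinase C of T cell signalling, all 5 animals were below the 17 reference animals, with 0.157 to 0.256 RPM against 0.257 to 0.583 RPM (background at p below 0.0001, 0.00359%).

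In multiple disease the higher window was chr17:49848001-49849000 at Cdk13, a cyclin-dependent kinase gene, with 0.465 ± 0.122 RPM (n = 14) against 0.292 ± 0.066 (n = 17) and 10 of 14 animals above the range, while M26, with 0.187 RPM, lay below it. The lower one was chr17:48765001-48766000 at Vps41, with 0.274 ± 0.117 RPM against 0.454 ± 0.093 and 7 of 14 below it. M48, with 0.0791 RPM from 1 read, was the lowest there.

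Between the lineages, 12 of 83014 chromosome 17 windows had p below 0.0001, 4 higher and 8 lower in the atrazine lineage. This was 0.0145%, near the background of 0.0133%, and 11.0 windows would be there in proportion. By DESeq2's Wald test (0.0193% against 0.0269%), and without animals tagged DMSO (0.0193% against 0.0288%), the share lay below the background. The higher window with the smallest p was chr17:6076001-6077000 at Ntrk2, which encodes the receptor of brain-derived neurotrophic factor. It had 0.430 ± 0.114 RPM in the atrazine lineage (n = 50) and 0.288 ± 0.063 RPM in controls (n = 16). The lowest, median and highest atrazine lineage animals had 0.209, 0.417 and 0.717 RPM, and the controls 0.208, 0.278 and 0.402 RPM. In this window, which was picked by its p, 29 of 50 animals lay above the highest control. Such a count was not made over all windows. The log2 difference was 0.57 (SE 0.12, adjusted p = 0.415, edgeR's quasi-likelihood test).

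The lower window with the smallest p, chr17:62151001-62152000, lay in a stretch of 6 windows where many animals of one lineage had almost no reads. The window had 0.119 ± 0.110 RPM in the atrazine lineage and 0.305 ± 0.167 RPM in controls, with a log2 difference of -1.33 (SE 0.30, adjusted p = 0.600, edgeR's quasi-likelihood test). Control animal M3, which has the smallest library, also had no read in this window, and the ranges of the lineages overlapped. Over the whole stretch, chr17:62149001-62155000, 17 of 50 atrazine lineage animals had levels between 0.0025 and 0.0232 RPM, from 1 to 10 reads in the 6 windows. The others had between 0.0662 and 0.435 RPM. Over all 6 windows no control animal was that low, and the 16 controls had between 0.1005 and 0.489 RPM with a median of 0.342. The median of all 50 atrazine lineage animals was 0.165 RPM.

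The windows around the stretch, averaged over both sides, were not low in the same animals. In these 12 windows, 6 on each side, the 17 animals had a median of 0.387 RPM and none was below 0.343 RPM. The other animals had a median of 0.390 RPM. The ends of the stretch were not examined separately. The 17 animals were 8 of 19 without disease, 4 of 14 with multiple disease, 3 of 4 with testis disease and 2 of 5 lean animals, and none with kidney disease (3) or late puberty (5). Of the 13 atrazine lineage animals tagged DMSO, 2 were among them. The stretch was picked out after its values were seen, so no test was made over it. How many copies of this DNA each animal carries was not measured here, and the animals came from an outbred stock.

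**Figure D5:**
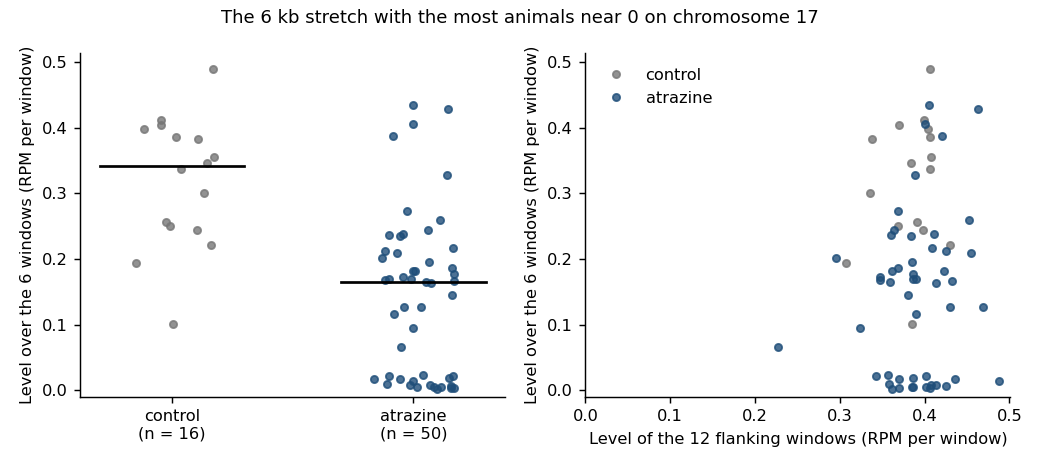
Points are animals, with the level over the 6 windows of chromosome 17 (RPM per window) by lineage (left, line at the median) and against the level of the 12 windows around them (right). In the atrazine lineage 17 animals lie near 0 while their surrounding windows are between 0.343 RPM and the range of the other animals, and no control is near 0.

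Such stretches were searched for along the chromosome as runs of 3 or more windows with an upper quartile from 0.2 to 1 RPM, where at least 3 animals were under 10% of it. Chromosome 17 had 5, or 0.550 per 10000 windows, against 0.936 over chromosomes 1 to 20. After the stretch above, the clearest were the neighbouring stretches chr17:59758001-59763000 and chr17:59767001-59773000. The same 3 atrazine lineage animals, M29, M39 and M62, had at most 0.0179 RPM in the first and 0.0222 RPM in the second, where the lowest of the other animals had 0.126 and 0.0876 RPM. Controls had medians of 0.317 and 0.280 RPM. The windows between and around the second were low in these animals too, with a median of 0.0540 RPM against 0.217 RPM. The last 2 stretches, at chr17:39459001-39462000 and chr17:86091001-86094000, rested on 3 windows each, with 0 to 3 reads in the low animals, and M48 was among these in both.

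Over 1 Mb bins, the levels of chromosome 17 differed between the lineages in 3 of 91 bins at adjusted p below 0.05 (edgeR's quasi-likelihood test), where 14.5% of all bins were called. All 3 were higher in the atrazine lineage. The bin at 17 Mb had 0.347 ± 0.018 RPM in the atrazine lineage (n = 50) and 0.3296 ± 0.020 RPM in controls (n = 16), with a log2 difference of 0.07 (SE 0.02, adjusted p = 0.016). The bin at 22 Mb had 0.361 ± 0.010 against 0.352 ± 0.014 RPM (adjusted p = 0.044), and the bin at 90 Mb had 0.355 ± 0.0072 against 0.349 ± 0.0047 RPM (adjusted p = 0.039). In all 3 the ranges of the lineages overlapped, as did those of the lower bin with the smallest p, at 68 Mb, with 0.354 ± 0.015 against 0.365 ± 0.016 RPM (adjusted p = 0.085).

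The number of lineage bins depended on a few animals and on the tags. Without M28 and M48 it was 22, 20 of them higher, where 977 of 2794 bins were called over the genome. Without the 13 animals tagged DMSO it was 36, 24 of them higher, where 1548 of 2794 were called. With animals free of disease only it was 0, as over the genome (8 at an unadjusted p below 0.05, of 619 over the genome), and by DESeq2's Wald test 5, of 595 over the genome.

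Apart from the lean comparison, which was not tested over bins, no disease comparison had a bin at adjusted p below 0.05. This held for chromosome 17 and for all 2794 bins of the genome, by edgeR's quasi-likelihood test and by DESeq2's Wald test. At an unadjusted p below 0.05, edgeR gave 2 chromosome 17 bins, both with testis disease, of 9 bins called over the genome, and 0 for the other diseases tested. Without M29, or without M41, testis disease had 0. DESeq2 gave the same numbers with testis disease, 1 of 12 with late puberty and 0 for the others. In testis disease the bin at 57 Mb had 0.326 ± 0.0092 RPM (n = 4) against 0.312 ± 0.0084 RPM (n = 17), and the bin at 47 Mb had 0.436 ± 0.010 against 0.467 ± 0.026 RPM. Both had an adjusted p of 0.994 by edgeR. In late puberty the bin at 89 Mb, which has the highest level of the chromosome, had 0.774 ± 0.072 RPM (n = 5) against 0.868 ± 0.107 RPM (n = 17), with a log2 difference of -0.17 (SE 0.08, adjusted p = 0.999 by edgeR). The bin at 47 Mb had 0.479 ± 0.0063 against 0.467 ± 0.026 RPM (adjusted p = 0.999 by edgeR). In multiple disease the bin at 9 Mb had 0.410 ± 0.287 RPM (n = 14) against 0.340 ± 0.053 RPM (n = 17), and the bin at 67 Mb had 0.352 ± 0.030 against 0.362 ± 0.013 RPM (both adjusted p = 0.718 by edgeR). The higher mean at 9 Mb came from M48, which had 1.40 RPM, while the other animals with multiple disease had between 0.302 and 0.381 RPM, within the reference range of 0.274 to 0.512 RPM. Without M48 no chromosome 17 bin was higher by more than 0.03 on the log2 scale, so the difference of 0.27 at 9 Mb was lost. In kidney disease the smallest p were at 88 Mb, with 0.368 ± 0.00096 RPM (n = 3) against 0.363 ± 0.0061 RPM (n = 17), and at 37 Mb, with 0.382 ± 0.0071 against 0.389 ± 0.0096 RPM (both adjusted p = 1.00 by edgeR).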

How the data were processed

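The deposited counts are reads per 1000 bp window for 66 animals, which the authors made by cleaning reads with Trimmomatic, mapping them with Bowtie2 to Rnor_6.0 and counting with MEDIPS, without normalization. A further 298 sample columns, which hold RPKM values or the counts of the other tables, were not used. The authors' fold changes and p-values were not used either. Library totals and RPM use the counts of the whole table. All windows whose reads averaged 10 or more over the animals compared were tested with edgeR 4.0.16 (TMM, quasi-likelihood, dispersion trend from 200000 windows), and 1 Mb bins in the same way over 2794 bins. Log2 differences are group minus reference, and bin and window levels in these tests are on TMM-scaled libraries. The share of reads was compared by permutation of animals, exact where a group had fewer than 10 and otherwise with 100000 resamples (SciPy 1.17.1), except in the lean comparison. Disease comparisons share the 17 reference animals. Alternatives were DESeq2 1.42.0, other filters and size factors, and animals left out. The members and lists were chosen with earlier results of these data known. Genes come from the study's region lists. In each comparison the window, and outside the lean comparison the bin, with the smallest p in each direction are named, with the 5 highest and 5 lowest bins, the 3 most variable bins and the 5 highest windows.

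The table gives 1 library per animal, and control animal M1 of the 67 listed has no counts. In simulated counts with 200 changed windows among 253385, the lean design called 51% of changes of 2-fold and 100% of 4-fold at p below 0.0001, with 14 false calls. The simulated windows were independent, with the same dispersion throughout and no profile shared along a chromosome or between animals. These figures may therefore not hold for the real counts, where leaving out M28, M42 or M22 changed the number of calls. Values from few reads carry a large counting error.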

Additional observations from a re-analysis of the deposited data

Results flagged for a closer look

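The share of reads on chromosome 17 in lean animal M42, 3.52%, stood apart from those of the other 4 lean animals, which lay between 3.31% and 3.36%. The gap to the nearest was 0.744 of the range of the group, above the 0.710 limit of Dixon's test for 5 animals. It was the only such case among 19 groups of 4 to 10 values tested, and chance gives about 1 in 20.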

How the results depend on the processing

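No paired analysis was possible because animal numbers are unique and no number recurs in another group. Of 49 alternatives for the share of reads on chromosome 17, 5 turned direction, and the 38 with a test had p between 0.0888 and 0.977 (permutation tests; 1 of them, kidney disease without animals tagged DMSO, had 1 animal in the group). The lean difference in share, 0.0405 percentage points, was between 0.00585 (without M42) and 0.0576 with 1 lean animal left out. The testis difference turned to -0.00381 without the top 1% of windows and -0.00732 without animals tagged DMSO, and was between -0.00143 and 0.0043 with 1 animal left out. The late puberty difference turned to 0.000574 without the top 1% of windows. The cause was not tested.

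Of 67 counts of windows with p below 0.0001, 36 were within 1.5 times the reported count. Lean counts were 33 by DESeq2's Wald test (0.0405% against 0.0696% of other windows) and 38 against all 19 animals without disease (0.0456% against 0.0773%). At a mean of at least 20 reads the count was 9 (0.0186% against 0.0462%). It was 70 without M22, 3 without M28 and M42, and from 5 to 65 with 1 animal left out. The lean share on chromosome 17 was below that of the other windows in all 14 settings. These settings reuse the same animals, and the chromosome was chosen for this count, so they give no separate support. Testis counts were 7 (Wald; 0.0085% against 0.0045% of other windows), 5 (19 animals; 0.0060% against 0.0044%), 1 (20 reads), 8 (without M22; 0.0097% against 0.0091%), 4 (without animals tagged DMSO) and from 1 to 3, the shares given being those above the background. Late puberty counts were 7 (0.0085% against 0.0045%), 2, 0, 5 and 3 under the same changes, 5 with no filter, and from 1 to 4, of which 3 without M35 (0.0036% against 0.00057%) and 4 without M50 (0.0049% against 0.0034%) lay above the background. Kidney counts were from 0 to 4 with 1 animal left out, and the count of 4, without M60, was near the background (0.0049% against 0.0052% of other windows). Without animals tagged DMSO 1 kidney animal remained and was assumed to vary like the reference, so its count is not given. Multiple disease counts were 6 (Wald; 0.0074% against 0.0092% of other windows), 0 (20 reads; background 0.00094%) and 2 without M48 (0.0024% against 0.0046%). With a count of 1, the share lay above the background with DESeq2 size factors (0.00123% against 0.00116%) and with no filter (0.00115% against 0.00105%). It did so too without animals tagged DMSO (0.00121% against 0%). Lineage counts were 5 (20 reads; 0.0073% against 0.0131% of other windows) and 7 with animals free of disease only (0.0084% against 0.0209%). Without M28 and M48 the count was 18 (0.0216% against 0.0401%). It was 16 by the Wald test (0.0193% against 0.0269%) and 16 without animals tagged DMSO (0.0193% against 0.0288%). Under these the share on chromosome 17 lay below the background. With DESeq2 size factors it was 0.0133% against 0.0129%, and with no filter 0.0206% against 0.0198%. Lineage bins numbered 5 by the Wald test (595 of 2794 over the genome), 36 without animals tagged DMSO (1548), 0 with animals free of disease only (0) and 22 without M28 and M48 (977), so that 4 of its 6 alternatives moved the count of 3 by over 1.5 times. In the disease comparisons other than the lean one, which was not tested over bins, no alternative called a bin. The alternatives leaving out M22, or M28 and M42 together, were chosen after seeing the data. In simulated counts of the kind described above, without animal profiles, the kidney design with 3 animals called 31% of 2-fold and 97% of 4-fold window changes.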
